A study of Mus musculus with 4 samples.

Results

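The genes described here encode the integrins, laminins and collagens, with decorin, biglycan and the SPARC proteins, read in the CA1 field of the mouse hippocampus in the hours after foot shock. They were chosen by gene symbol alone, as every probe set whose single symbol was an integrin alpha or beta gene, a laminin chain, a collagen chain, Dcn, Bgn or a SPARC family gene. The rule found 97 probe sets of 64 genes, out of 12422 probe sets other than controls that stand for 8251 named genes. The rule uses symbols and no intensity, though it was set with earlier results of these data known. On these arrays a transcript is read by a set of short oligonucleotides, the probe set, and 25 of the 64 genes had several.

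The animals were young male C57BL/6J mice, a standard inbred strain, under a condition the labels call shock alone. They entered the unfamiliar chamber 2 h ahead of training, received 3 foot shocks of 0.5 mA, each lasting 1 s, and stayed in the chamber afterwards. Total RNA of CA1 was prepared 1, 2, 4 or 6 h after the last shock and hybridised to Affymetrix oligonucleotide arrays, 1 array per time and 4 in all. The number of animals in a sample is not in the labels, and animals without shock were not analysed here, so there is no baseline and times are compared with each other. With 1 array per time no test between times was possible and no error can be attached to a value; precision is limited by the 4 arrays.

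Collagens and laminins are the scaffold of the extracellular matrix. In the brain, laminins and type IV collagen form the basement membranes around blood vessels and under the pia, fibrillar collagens and decorin lie in the meninges and the walls of larger vessels, and much of the neural tissue has a looser, collagen-poor matrix. Integrins are receptors made of 1 alpha and 1 beta subunit that tie cells to this matrix and signal from it; the beta 1 subunit pairs with many alpha subunits, and alpha 7, alpha 6 and alpha 3 with beta 1 bind laminins.

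The regions upstream of Itgb1 and Col18a1 are shown because these genes had opposite one-way courses over the 4 times, with the values given further on. Each is the 250 bases before a transcription start in RefSeq, build GRCm38.p6, written 5′ to 3′ on the strand of the gene. For Itgb1 it is chr8:128685404-128685653 on the plus strand, and for Col18a1, which has 2 such windows, it is the farther-upstream one, chr10:77166531-77166780 on the minus strand. Capitals mark matches on either strand to the GC box GGGCGG, read by Sp family factors, and to the CCAAT box, letters CCAAT, which appears below as its reverse complement.
Itgb1: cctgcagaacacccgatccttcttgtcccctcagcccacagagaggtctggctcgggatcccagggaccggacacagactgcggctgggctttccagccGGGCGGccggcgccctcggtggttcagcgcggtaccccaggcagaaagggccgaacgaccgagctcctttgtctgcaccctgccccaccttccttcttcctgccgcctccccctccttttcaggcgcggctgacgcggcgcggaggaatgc
Col18a1: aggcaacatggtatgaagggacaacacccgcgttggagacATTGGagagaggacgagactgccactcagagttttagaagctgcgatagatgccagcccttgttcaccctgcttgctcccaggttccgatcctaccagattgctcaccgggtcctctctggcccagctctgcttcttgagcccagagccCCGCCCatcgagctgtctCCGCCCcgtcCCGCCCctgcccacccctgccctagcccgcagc

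The Itgb1 window held 1 GC box and no CCAAT box, and the printed Col18a1 window held 3 GC boxes and 1 CCAAT box. The second Col18a1 window, chr10:77113706-77113955 on the same strand, held 0 of either, and which start the measured transcript uses is not known here. Of the 64 genes, 42 had an entry, with 47 windows in all. A GC box lay in 22 of the 47 windows, or 46.8%, against 32.7% of 32841 windows of the same length over all genes, and a CCAAT box in 12, or 25.5%, against 33.9%. The median GC content was 57.6% in the member windows and 52.4% over all. The AP-1 site TGANTCA, read by Fos and Jun dimers that neural activity induces, was found in 2 member windows, those of Col6a1 and Itgax, or 4.3% against 6.8% over all. The cyclic AMP response element TGACGTCA was in 0 of 47 against 1.5%, and the TATA box TATAAA in 5, or 10.6%, against 12.4%. The 5 motifs were counted without regard to overlap with each other, and a match is a run of letters and not a shown binding site. Dcn, Col9a3, Itga7 and Col1a1 have no entry in the table.

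Matrix and integrin transcripts were often too dim to follow. Values are scaled intensities, linear array units after each array was brought to the same trimmed mean. The floor below which values were not ordered was 100.8, the 40th percentile of all probe sets other than controls. Of the 97 member probe sets 32 lay above the floor on all 4 arrays, 22 on some and 43 on none. The share above it on all arrays was 33%, against 51.9% of all probe sets. By gene, with the brightest probe set standing for each, 33 of 64 members, or 51.6%, had a mean above the floor, against 68.7% of all genes. A value at or below the floor shows only that the signal was dim, since a probe set may also read its transcript poorly.

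Decorin, a small proteoglycan that coats collagen fibrils and binds TGF-beta, was high at 1 h. Dcn read 5844 on the 1 h array and 3395, 2523 and 2915 on those of 2, 4 and 6 h. The first array was high and the later 3 lay closer together. The 1 h value was 1.72-fold above the next highest and 2.32-fold above the lowest. On the log2 scale it lay 1.00 above the mean of the other 3 arrays. Dcn kept this place at 1 h at the 1.5-fold limit with common median scaling and with quantile normalization. At a limit of 2-fold it no longer stood apart. The values as deposited, the floors and the plain probe sets could not change its place at the 1.5-fold limit. The deposited values differ from those used by factors of 0.999 to 1.001. The floors and the choice of plain probe sets only decide which probe sets are admitted.

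The other small matrix proteins moved little. Biglycan, the proteoglycan closest to decorin, read 422, 392, 372 and 380 at 1, 2, 4 and 6 h. Its second probe set read 278, 312, 321 and 236, with another order, so the 2 readings of Bgn do not share a course. Sparc, which binds collagen and calcium and is made by endothelial cells and glia, read 858, 758, 764 and 860. Sparcl1, a SPARC relative that astrocytes secrete, read 11670, 11620, 9937 and 10050, and its highest array was only 1.17-fold above its lowest.

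**Figure D1:**
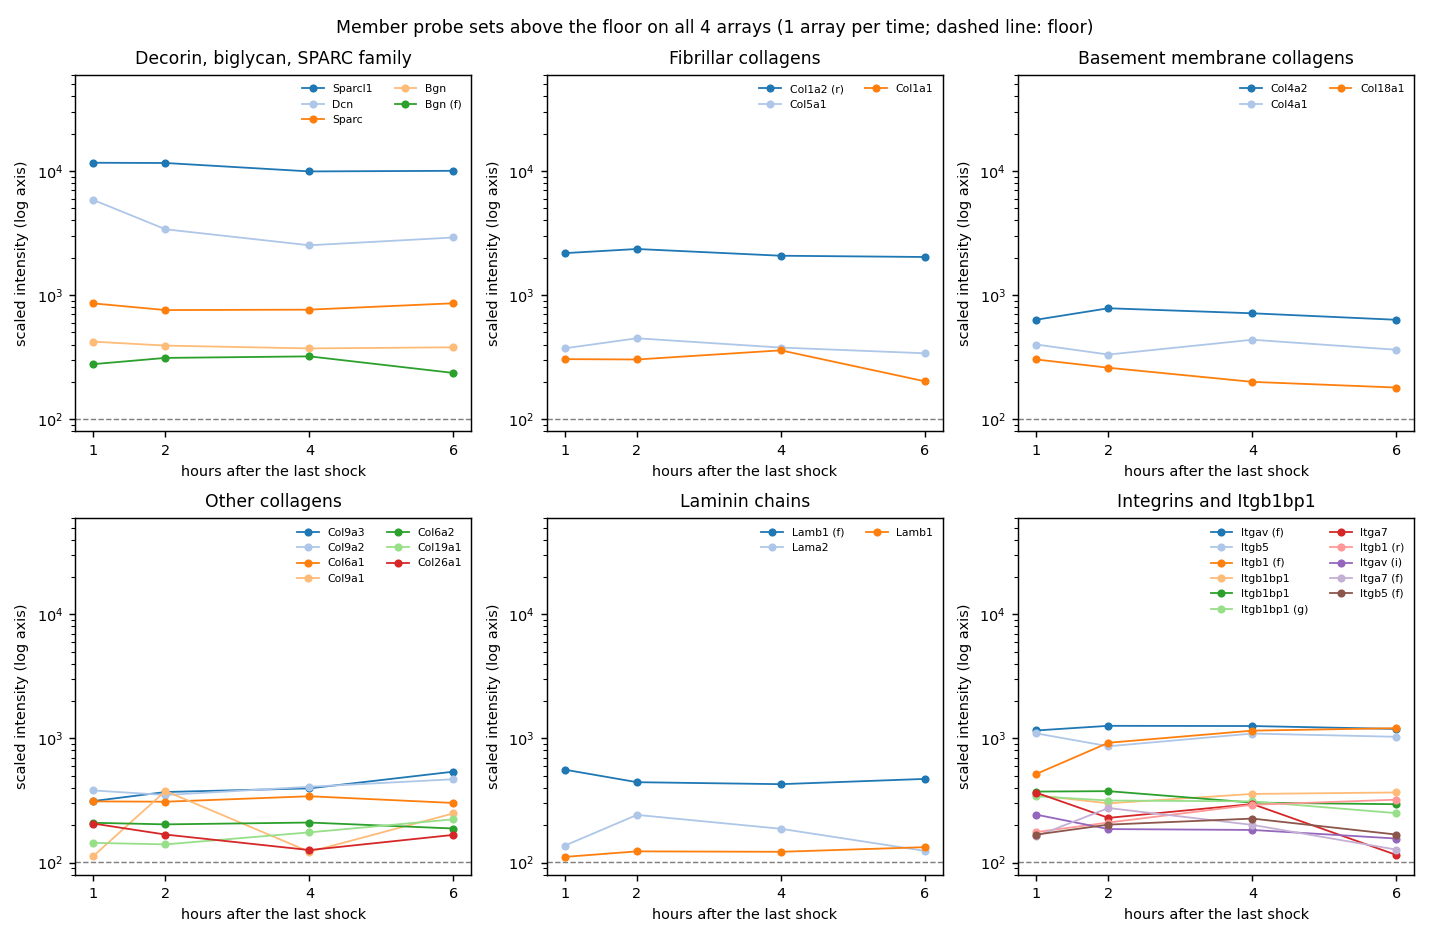
Scaled intensity (log axis) of the 32 member probe sets above the floor on all 4 arrays against hours after the last shock, by role; each point is 1 array, the dashed line is the floor of 100.8, and letters in brackets are the probe set codes. Most lines are flat, while Dcn starts high at 1 h (5844), Itgb1 starts low (518) and Itga7 ends low (115).

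Fibrillar collagens, the tensile fibres of meninges and vessel walls, were lowest at 6 h in all 3 genes that could be followed. Over all genes 1480 of 5671 were lowest there. Col1a1 read 305, 303 and 359 on the first 3 arrays and 202 at 6 h. The 6 h array alone was low, barely 1.5-fold below the next lowest, which is the limit used here for standing apart; it fell short of that limit on the values as deposited, with common median scaling and with quantile normalization. A second Col1a1 probe set was below the floor on all arrays. Col5a1 read 373, 449, 378 and 340 and had a second probe set below the floor. Col1a2, the partner chain of Col1a1, read 2181, 2355, 2078 and 2030, so the 2 chains of type I collagen differed in how far they moved. This Col1a2 probe set carries a code (r) for dropped design rules, and a plain one read between 22.0 and 35.8. All 3 probe sets of Col3a1, a collagen of distensible vessel walls, read below the floor throughout.

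Of the basement membrane collagens, Col18a1 had a one-way course. Type XVIII collagen lies in vessel and epithelial basement membranes and is the source of endostatin. Col18a1 read 303, 260, 200 and 180 in order of time, lower at each later time with a span of 1.69-fold. A second probe set read 116, 148, 128 and 68.0, also lowest at 6 h but highest at 2 h, and 3 further ones were below the floor. The type IV chains, the network that every basement membrane holds, read 400, 332, 437 and 363 for Col4a1 and 634, 784, 714 and 633 for Col4a2. At 2 h Col4a1 was at its lowest and Col4a2 at its highest, though both chains belong to the same triple helix. Col7a1 read 170 at 1 h and lay between 33.4 and 62.6 at the later times, below the floor. Col4a3, Col4a4, Col4a5 and Col15a1 were below it on all arrays.

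The type IX chains, which sit on the surface of fibrils, were each higher at 6 h than at 1 h. Col9a3 read 313, 370, 396 and 540, higher at each later time with a span of 1.73-fold. Col9a2 read 381, 350, 408 and 469, also highest at 6 h. Col9a1 read 113, 377, 122 and 249, high at 2 h and at 6 h and close to the floor at 1 and 4 h. Its 2 h value was 1.52-fold above the next highest, and it no longer stood apart with scaling to a common median or with quantile normalization. The courses of the 3 chains of this collagen thus differed between the first and the last array.

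Other non-fibrillar collagens ranged from steady to near the floor. Type VI collagen, the beaded filament near vessel and meningeal cells, was steady in Col6a1 (311, 309, 342 and 302) and Col6a2 (209, 203, 210 and 188). The remaining chain Col6a3 was above the floor only at 6 h, at 172. Col8a1, a short-chain collagen of vessel walls, was likewise above the floor only at 6 h, at 170, and Col12a1 was highest there, at 182 against 92.4, 128 and 92.0. Col19a1 read 144, 140, 175 and 223, and Col26a1 206, 168, 126 and 167. Col13a1 read 206 at 2 h and 138 at 4 h, 2.04-fold above the floor at its highest, and was below the floor at 1 h and at 6 h. Over the 9 genes of this group with a mean above the floor the median log2 difference was -0.29 at 1 h and 0.31 at 6 h. Below the other times at 1 h were 7 of 9, against 2697 of 5671 over all genes. Of these 7, Col6a1 and Col9a2 differed little, at -0.03 and -0.09, and Col12a1 and Col13a1 were below the floor at 1 h. The mean of Col13a1 passed the floor only through its high arrays, so its low place at 1 h follows from that filter. Above the other times at 6 h were 6 of 9, against 2771 of 5671, with Col26a1 above by only 0.03.

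Laminin chains, which assemble as alpha, beta and gamma trimers in basement membranes, gave mixed courses. Lama2, the alpha chain of muscle and of astrocyte and vessel basement membranes, read 137, 242, 187 and 124, 1.29-fold above the next highest at 2 h. Lama1, found under the pia, read 132, 142 and 147 at 1, 2 and 4 h and 54.1 at 6 h, where it was below the floor. Lama5, an endothelial chain, read 182 and 151 at 1 and 2 h and was below the floor at 4 and 6 h. A second Lama5 probe set was above the floor only at 2 h, at 178.

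The beta and gamma chains showed how far 2 probe sets of a gene can differ. Lamb1 read 560, 444, 428 and 472 with one probe set and 111, 123, 122 and 133 with the other, so that the 1 h array was the highest in the first and the lowest in the second. Lamc1, the gamma chain of most laminins, read 332, 93.8, 340 and 360. The 2 h array alone was low, below the floor, so the highest array was at least 3.57-fold above it. That probe set carries a code (f) for probes shared within a sequence family, and the plain Lamc1 probe set read 95.9, 115, 71.5 and 55.3, highest at 2 h. Lamb2, the beta chain of vessel basement membranes, was near the floor, at 107, 50.9, 60.7 and 115, and Lama4 passed it only at 2 h, at 140. Lama3 and Lamb3 were below it on all arrays.

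Itgb1, the beta subunit shared by most matrix-binding integrins, was low at 1 h and higher at each later time. It read 518, then 923, 1156 and 1210. The 1 h array was 1.78-fold below the next lowest, and the span was 2.34-fold. Its second probe set read 176, 210, 292 and 321, the same order with a span of 1.83-fold. Both come from the same transcript record, 1 with an f code and 1 with an r code, so they are not independent readings, and no plain Itgb1 probe set was on the array.

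Of the 12 alpha subunits on the array 4 had a mean above the floor. Itga7 stood apart at 6 h and Itgav did not, while Itga3 and Itgax fell below the floor there and were not compared. Itga7, the laminin-binding partner of beta 1 in muscle and vessel walls, read 365, 229, 296 and 115. The 6 h value was 1.98-fold below the next lowest, and the span was 3.17-fold. A second Itga7 probe set read 163, 275, 201 and 127, also lowest at 6 h but highest at 2 h, and one more was below the floor on all arrays. Itga3, another laminin receptor, read 150, 206 and 122 and then 92.4 at 6 h, below the floor, while its second probe set was highest there, at 141. Itgax, the leukocyte subunit CD11c, read 189, 234 and 157 and then 35.4 at 6 h, below the floor. Its highest array was 2.32-fold above the floor, and its 6 h array at least 1.56-fold below the next lowest.

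Itgav, the alpha subunit of vitronectin receptors, was steady in its brightest probe set, at 1160, 1264, 1259 and 1193. A second one, coded i for a reduced probe number and drawn from the same record, read 243, 186, 183 and 156, lower at each later time with a span of 1.55-fold, which fell under the limit with scaling to a common median and with quantile normalization. One more was below the floor. Over the 4 alpha subunits with a mean above the floor the median log2 difference at 6 h was -0.77. Below the other times lay 4 of 4, against 2900 of 5671 over all genes. Itgav did so by less than the 0.12 that the choice of scaling can shift a pair of arrays. With a floor at the 60th percentile Itgav alone was left, at -0.04, and with the mean over each gene's probe sets the median was -0.41.

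The remaining beta subunits did not share the course of Itgb1. Itgb5, which pairs with alpha v, read 1098, 865, 1095 and 1031, and its second probe set 168, 202, 226 and 168. Itgb4, the epithelial and endothelial partner of alpha 6, was below the floor at 1 h at 67.0 and read 236, 161 and 237 later, 2.35-fold above the floor at its highest. Itgb7, a lymphocyte subunit, read 225, 180, 82.4 and 114, with the 4 h array below the floor. Itgb1bp1, which binds the tail of beta 1, read 348, 300, 357 and 367 and had 2 further probe sets at 342, 316, 311 and 250 and at 373, 376, 304 and 295. The median log2 difference of the 4 beta subunits at 1 h was -0.45, from Itgb1 and Itgb4 below the other times and Itgb5 and Itgb7 above. Over plain probe sets alone, which leaves 3 genes and not Itgb1, it was 0.15. With the floor at the 20th percentile, which adds Itgb2 and Itgb3 for 6 genes, it was 0.01.

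Of the 12 alpha and 6 beta subunits, 8 and 2 stayed below the floor on all 4 arrays. Itgam and Itgb2, the 2 chains of the microglial complement receptor, read at most 97.4 and 79.5. Of 14 other markers of microglia and macrophages on the array, 9 were above the floor on all arrays and 4 on none. Itga6, the endothelial laminin receptor subunit, read between 11.2 and 67.4. The others were Itga2, Itga4, Itga5, Itga8, Itgae, Itgal and Itgb3.

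**Figure D2:**
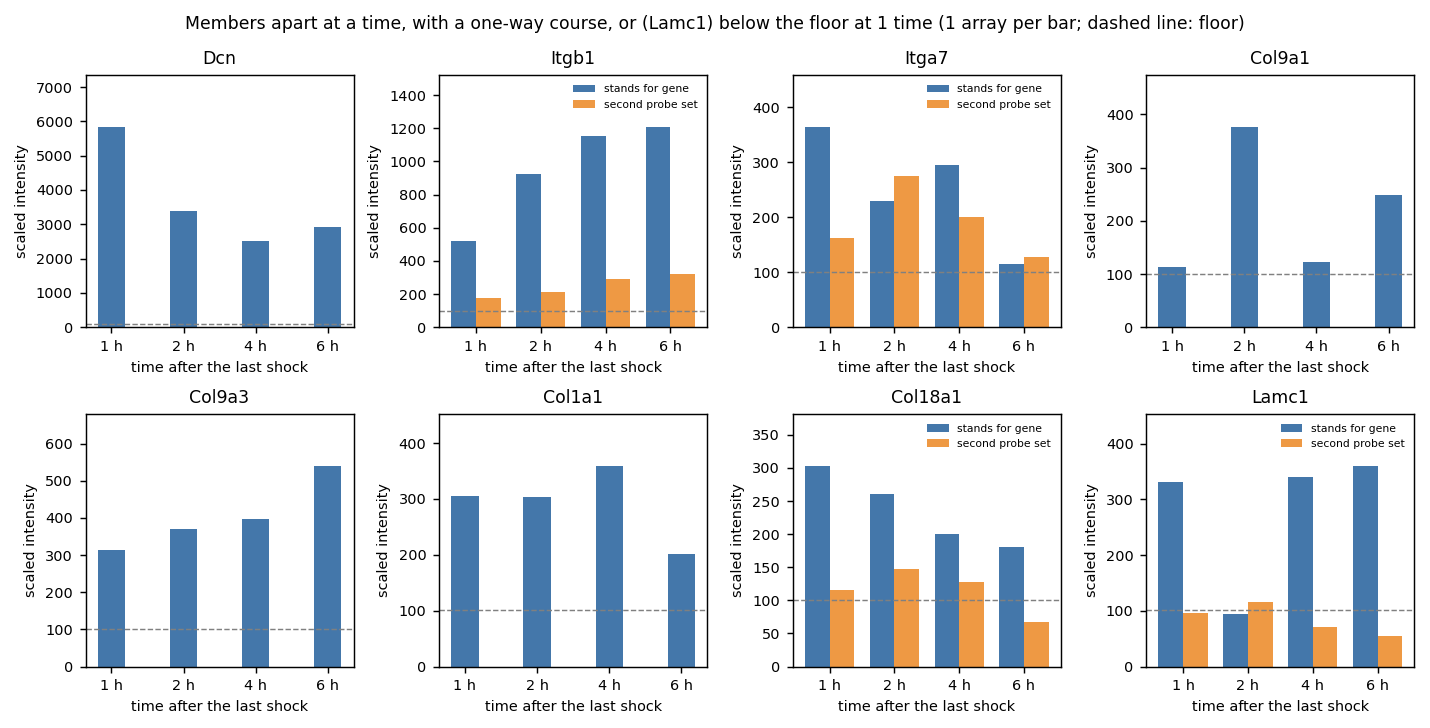
Scaled intensity of 8 members at 1, 2, 4 and 6 h after the last shock; each bar is 1 array, orange bars are a second probe set of the gene, and the dashed line is the floor of 100.8. Itgb1 climbs in both probe sets (518 to 1210 and 176 to 321), whereas the 2 probe sets of Lamc1 differ in which array is highest, and the 2 of Itga7 share only the low 6 h value.

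Counted together, few members stood apart at a time, meaning that the array lay 1.5-fold or more above all of the other 3, or below all of them. Among the 32 followed on all arrays, 1 was apart and higher at 1 h (Dcn), against 0.574% of 6442 probe sets, and 1 lower (Itgb1), against 0.931%. At 2 h 1 was higher (Col9a1), against 1.18%, and 0 lower, against 1.12%. At 4 h 0 were higher and 0 lower, against 0.202% and 1.01%. At 6 h 0 were higher, against 0.326%, and 2 lower (Col1a1 and Itga7), against 1.16%. Of 32 probe sets, 1 is 3.12%, so these counts are too small to set against the background shares.

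One-way courses of at least 1.5-fold were upward in 3 of 32 member probe sets, Col9a3 and both of Itgb1, against 0.792% of all. They were downward in 2, Col18a1 and Itgav, against 1.61%. Against the 1 h array, 4 of 39 member probe sets were at least 1.5-fold higher at 2 h, where 5.59% of all were, and 2 lower, where 4.84% were. At 4 h 2 of 37 were higher and 3 lower, against 3.38% and 5.33%. At 6 h 5 of 35 were higher, against 3.76%, and 6 lower, against 5.82%. The 5 were Col19a1, Col9a1, Col9a3 and the 2 of Itgb1, and the 6 were Col18a1, Col1a1, Dcn, Itga7, Itgav and Itgb7. These 3 comparisons share the 1 h array, and Itgb1 counts with 2 probe sets.

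The highest array was at least 1.5-fold above the lowest in 13 of 32 members, or 40.6%, against 27.9% of all probe sets. Members are dimmer than the array as a whole, and dim probe sets spread more. Under a mean intensity of 250 the median ratio of highest to lowest array was 1.63 in 11 members and 1.53 over all. From 250 to 500 it was 1.32 in 13 members and 1.42 over all, and from 500 upward 1.21 in 8 members and 1.24 over all. The 1.5-fold limit was passed by 8 of the 11 members, against 54.3% of all, in the dimmest class, by 3 of 13 against 38.0% in the middle one and by 2 of 8, Dcn and Itgb1, against 12.4% in the brightest.

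**Figure D3:**
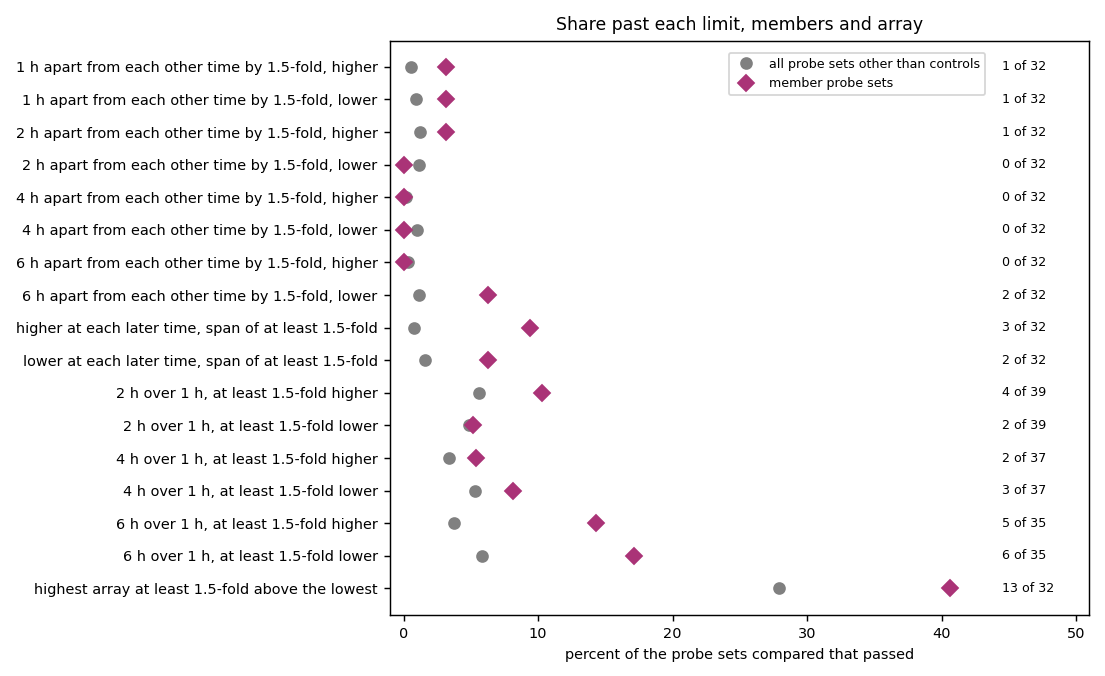
Percent of probe sets past each limit of 1.5-fold, for all probe sets other than controls (grey circles) and for the members (purple diamonds), with the member counts at the right. The 6 h over 1 h comparison has the widest gaps among the pairs, at 5 of 35 members higher against 3.76% and 6 of 35 lower against 5.82%.

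As a group the members had no common course. The median log2 difference of the 33 genes from the mean of the other times was 0.06, 0.06, 0.00 and -0.09 in order of time, against 0.01, 0.02, 0.00 and -0.01 over all 5671 genes. With scaling to a common median the 2 h and 4 h medians changed sign, to -0.02 and 0.05, and the 6 h median was -0.02. At 6 h 21 of 33 genes lay below the other times and 12 above, against 2900 and 2771 of 5671 over all genes. The median of the 5 laminins at 6 h was -0.47, with 4 of 5 below and Lamc1 above. Of these 4, Lamb1 differed by only -0.007, and its other probe set lay above, at 0.17. Lama1 and Lama5 were below the floor at 6 h, so their differences there are bounds. When the floor was raised to the 60th percentile only Lamb1 and Lamc1 had a mean above it, and the median of these 2 genes was 0.10. At 2 h the laminin median was 0.18 and the mean -0.14. The 3 basement membrane collagens had -0.16 and the 3 fibrillar collagens -0.23, each with 3 of 3 below.

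Genes that build, cut or sense the matrix were taken from 5 lists. Of 69 such genes above the floor on all arrays, 2 were apart and higher at 1 h, where 0.574% of all probe sets were. Those apart and lower were 1 at 2 h, 2 at 4 h and 1 at 6 h, where 1.12%, 1.01% and 1.16% of all were. The TGF-beta list holds the ligands, receptors and targets of the cytokine that drives matrix synthesis and that decorin binds. It had the highest median at 1 h of the 5, 0.33 over the other times. Of its 11 measured genes 9 lay above at 1 h and 9 were highest there. Over all genes 2974 of 5671 lay above at 1 h and 1419 were highest. Tgfb2 read 338, 177, 198 and 213. Ccn2, connective tissue growth factor, a target of the pathway that promotes collagen synthesis, read 320, 193, 105 and 167. Both stood apart at 1 h, as Dcn did, and Smad7, the inhibitory target, read 674, 638, 516 and 442. Smad4 and Tgfbr3 were instead lowest at 1 h, and 7 of 18 genes on the list, Tgfb1, Tgfbr1 and Tgfbr2 among them, never passed the floor.

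The other lists stayed nearer to 0. The 14 measured matrix glycoproteins had medians from -0.07 to 0.15; among them Mgp, an inhibitor of calcification in vessels, read 287, 196, 292 and 111, and elastin (Eln) 493, 474, 263 and 440. The 9 proteoglycan genes lay between -0.13 and 0.07, with the glypican Gpc4 at 104, 216, 192 and 155. The 18 genes of collagen maturation and turnover lay between -0.09 and 0.06. In that list Timp1, an inhibitor of matrix metalloproteinases, read 617, 658, 325 and 443, and Bmp1, which trims procollagen, read 224, 134, 306 and 256 while its second probe set was highest at 2 h, at 250. The 24 adhesion complex genes lay between -0.16 and 0.11, and Src, a tyrosine kinase active at integrin contacts, read 208, 103, 103 and 199. Paxillin (Pxn), an adaptor at integrin contacts, read 263, 196, 308 and 349.

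**Figure D4:**
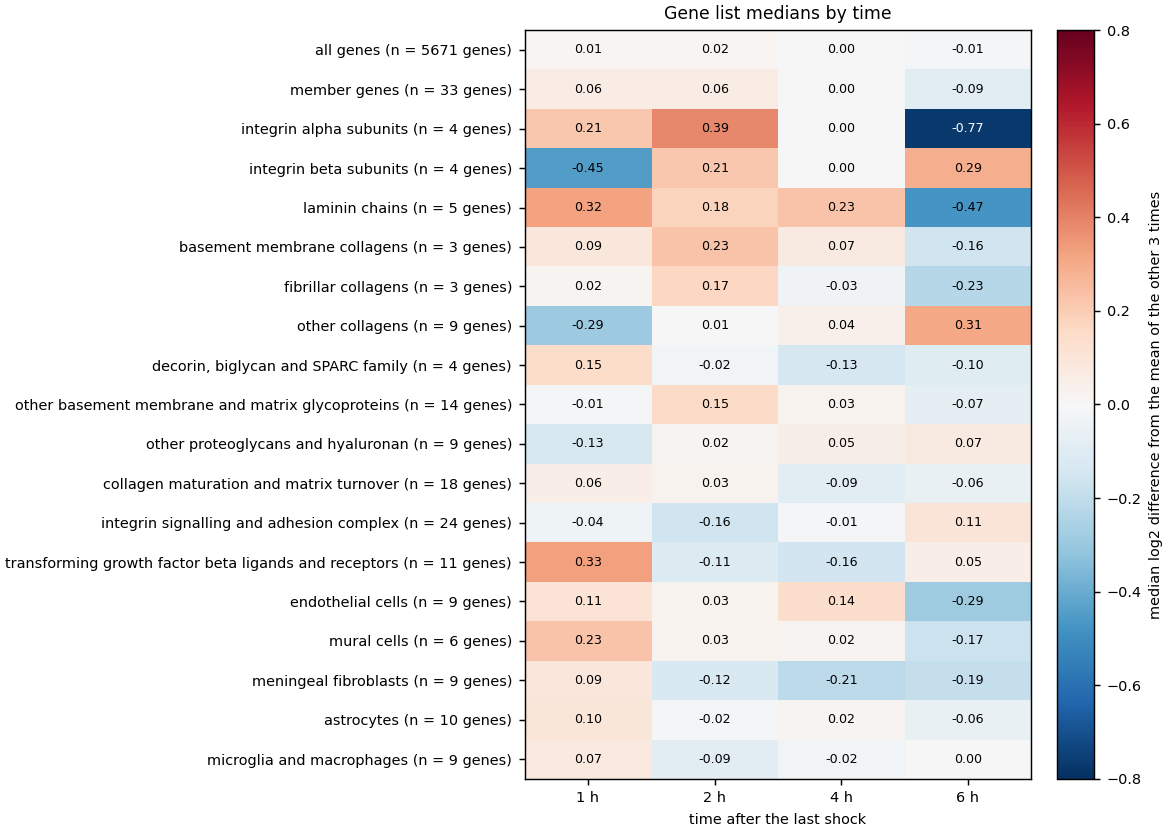
Median log2 difference of each gene list at a time from the mean of the other 3 times, over the genes with a mean above the floor (n in brackets); red is above and blue below the other times. The alpha subunits at 6 h (-0.77), the laminins at 6 h (-0.47) and the TGF-beta list at 1 h (0.33) lie farthest, among the lists drawn, from the all-gene row, which stays between -0.01 and 0.02, together with the beta subunits at 1 h (-0.45) and the alpha subunits at 2 h (0.39).

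Markers of the cells that make or hold this matrix also differed at 6 h. Of 9 measured endothelial markers 7 lay below the other times at 6 h, against 2900 of 5671 over all genes. At 6 h 7 of the 9 markers were lowest, against 1480 of 5671, and their median was -0.29. Their summed intensity was 2526, 2229, 2379 and 2018 at 1, 2, 4 and 6 h. Pecam1, 1 of these 7, was above the floor only at 1 h, at 217. Its mean passed the floor through that array, so its place at 6 h shows only a dim signal. Counts of the highest and lowest arrays use values before the floor. The remaining 2 of the 9, Kdr and Slc2a1, were instead highest at 6 h, at 174 and 338. Of 6 measured mural cell markers, for pericytes and smooth muscle, 5 lay below at 6 h, with a median of -0.17 and sums of 1043, 846, 931 and 696. At 1 h 5 of these 6 lay above, with a median of 0.23, against 2974 of 5671 above over all genes. In tissue RNA fewer cells of a type and less RNA per cell cannot be told apart, and the part of vessel content in the 6 h values of Itga7, Col1a1, Lama1 and Col18a1 was not tested.

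Meningeal fibroblast markers gave no single direction. Their sums were 3634, 3151, 3408 and 4774, the last through Igf2, which read 2379 at 6 h against 1243, 888 and 1191. Their median at 6 h was nonetheless -0.19. At 1 h, where Dcn was high, it was 0.09, with 5 of 9 above. The defining markers Aldh1a2, Crabp2, Slc22a6 and Ogn were below the floor on all arrays. Ttr, the choroid plexus transcript, read 111, 89.9, 198 and 4482. All 3 measured markers of that tissue were highest at 6 h, with sums of 386, 327, 613 and 5245. Of 8 measured oligodendrocyte markers 6 were highest at 6 h, where their median was 0.23, with sums of 26302, 26673, 28031 and 29072. Over all genes 1321 of 5671 were highest at 6 h. Mal, also among the 8 oligodendrocyte markers, dropped instead, with readings of 1880, 2017, 2138 and 1218 in order of time. Of 3 measured blood cell markers 3 lay above at 6 h and 0 at 1 h, against 2771 and 2974 of 5671 over all genes. Their sums were 3308, 3819, 4236 and 4173. The part of these cells in the 6 h values of Col9a1, Col9a3, Col6a3 and Col8a1 was not tested. Astrocyte markers, 10 of 10 measured, had medians between -0.06 and 0.10. Microglial markers, 9 of 14 measured, had medians between -0.09 and 0.07.

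Of the markers of the labelled tissue, 8 of 10 CA1 pyramidal neuron genes had a mean above the floor, with sums between 22895 and 26765. The 4 arrays had deposited trimmed means of 500.3 each, so no library depth applies. The 2 h array had the highest ratio of 3' to 5' signal for beta actin, 2.70 against 1.74 to 1.84, a ratio that RNA quality and labelling affect. The same ratio for Gapdh was 3.98, 4.82, 3.85 and 3.24 at 1, 2, 4 and 6 h, larger than that of actin on each array. The part of these ratios in the 2 h values of Lamc1, Col9a1 and Lama2, or in values at other times, was not tested. Leaving out the 2 h array only removes a comparison. It could not undo the calls of Dcn and Itgb1 at 1 h or of Itga7 and Col1a1 at 6 h, and is no check on them. The robust SD of log2 differences between arrays was 0.26 to 0.32 over all probe sets and 0.27 to 0.43 over the members.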

How the data were processed

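The deposited table gives a linear intensity for 12488 probe sets on each of 4 arrays; the authors had already brought the intensity values to a common level. Software, detection calls and any pooling of animals: not given in the sources used here. Of 12422 probe sets other than controls, 10833 had 1 symbol in the platform's annotation, 396 several and 1193 none; all 97 members were found by gene identifier in RefSeq. Arrays were rescaled to a common trimmed mean (2% off each end, factors 0.999 to 1.001), values under the floor of 100.8 were set to it, and log2 was taken; printed intensities are before the floor. The probe set with the highest mean stood for a gene. A list's median covers genes with a mean above the floor. Codes f, r, i, g and s in probe set names mark shared or reduced probes.

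No test was run. Members, lists and limits were chosen with earlier results of these data known. Members were named when apart at a time, one-way, at least 2-fold above the floor on 1 array and not on all, among the 4 with the largest range in their role, or in a fixed set (Dcn to Lamc1 above); other lists gave up to 2 genes. Some of these were left out, and Kdr, Slc2a1, Igf2, Smad7, Smad4 and Tgfbr3 were added after their values were seen. The alternatives were the values as deposited, common median and quantile scaling, floors at the 20th and 60th percentiles, fold limits of 1.3 and 2, plain probe sets, means over probe sets or members, and each array left out. The steps were tested on simulated data. Computation was in Python 3.11.15 with pandas 2.3.3 and NumPy 2.4.6; plots were drawn with matplotlib 3.10.9.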

Additional observations from a re-analysis of the deposited data

How the results depend on the processing

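The depth of an array is its signal over background, and 43 of 97 member probe sets never passed the floor, so little can be said of them. With common median scaling the array-wide log2 difference of 6 h from 2 h shifted by 0.12, and those of the other pairs by less; the values given are relative to the trimmed mean. The member medians at 1, 4 and 6 h stayed within 0.1 of their values under all alternatives run. The 2 h median of 0.06 was -0.043 when the floor was at the 60th percentile and 0.197 without the 1 h array. Counts moved most with the floor, by which probe sets are admitted. With it at the 20th percentile, where dim probe sets enter, 8, 4, 3 and 7 members stood apart at 1, 2, 4 and 6 h (from 2, 1, 0 and 2), 8 had one-way courses (from 5), and 17, 18 and 29 passed 1.5-fold over 1 h at 2, 4 and 6 h (from 6, 5 and 11). At the 60th percentile 0 were apart at 2 h and 0 at 6 h, 2 had one-way courses, and 2, 2 and 3 passed over 1 h. A limit of 2-fold left 0 apart at 1 h, 0 at 2 h and 0 at 6 h, 1 one-way course, and 1, 2 and 4 over 1 h; a limit of 1.3-fold gave 2 at 2 h, 1 at 4 h and 9 for 4 h over 1 h. Plain probe sets alone gave 1 apart at 1 h, 2 one-way courses and 3 for 4 h over 1 h. Common median scaling and quantile normalization each gave 0 apart at 2 h and 1 at 6 h, and the values as deposited 1 at 6 h. Without the 2 h array, an alternative chosen after seeing the data, 4 were apart at 1 h and 8 had one-way courses. Leaving out that array can only raise these counts. The median of the beta subunits at 1 h, -0.450, was 0.009 when the floor was at the 20th percentile, which adds Itgb2 and Itgb3, and 0.147 over plain probe sets, which leave out Itgb1. That of the laminins at 6 h, -0.475, was 0.102 over Lamb1 and Lamc1, the only ones with a mean above a floor at the 60th percentile. The calls of Dcn, Itgb1 and Itga7 were kept under each scaling. Those of Col1a1 at 6 h, Col9a1 at 2 h and the Itgav course were lost with common median scaling and with quantile normalization. Col1a1 at 6 h was lost on the values as deposited too. A floor decides only which probe sets are compared, so it could not undo a call among those still admitted. The mural median gave no value with the floor at the 60th percentile. No paired analysis was possible because each time has 1 sample.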
